A study of Homo sapiens with 8 samples.

Results

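The mucin genes MUC1, MUC2, MUC3A, MUC4, MUC5AC, MUC5B, MUC13, MUC16, MUC20 and MUC21 were taken by gene symbol from deposited count tables that list 59050 symbols, and all 10 were present. The tables hold RNA sequencing counts from tumours grown as xenografts from H2122 cells, an established cell line from a human lung cancer. Each of the 2 groups had 4 tumours: parental cells, labelled wild type, and cells with SMARCA4 knocked out. All 8 tumours had received vehicle, and no other agent or allele is named. SMARCA4 encodes one of the alternative motor ATPases of SWI/SNF complexes, which move nucleosomes. Nothing in the labels says whether the tumours came from separate animals or the knockout cells from 1 clone, so the p-values below measure only the spread between these samples.

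Mucins are large glycoproteins whose repeated serine- and threonine-rich stretches carry dense O-linked glycans. The transmembrane mucins (MUC1, MUC3A, MUC4, MUC13, MUC16, MUC20 and MUC21) stand on the apical surface of epithelial cells, shed their outer part and can bind receptors beside them. The gel-forming mucins (MUC2, MUC5AC and MUC5B) are packed into granules, released and linked by disulphide bonds into mucus, and MUC5AC and MUC5B are the main polymers of airway mucus. Lung adenocarcinomas with a mucinous or goblet-cell character are known for high levels of several of these genes.

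The repeats also bear on how mucin reads can be counted, since a read that lies wholly within identical repeats or in a copy of the gene has no unique place. One repeat unit each of MUC1, MUC4 and MUC20 is shown because these genes span the range from a level that was not called different to the steepest fall below. The units were read from GENCODE 29 transcripts (GRCh38) on the coding strand. They lie in coding sequence at chr1:155191820-155191879 (minus strand, exon 2), chr3:195782837-195782884 (minus strand, exon 2) and chr3:195725164-195725220 (plus strand, exon 1), and capitals mark bases that are not the same in every unit of the stretch.
MUC1: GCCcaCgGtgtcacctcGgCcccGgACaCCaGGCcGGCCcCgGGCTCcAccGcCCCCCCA
MUC4: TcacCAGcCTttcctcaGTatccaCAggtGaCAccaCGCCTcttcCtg
MUC20: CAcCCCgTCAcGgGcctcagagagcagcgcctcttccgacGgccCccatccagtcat

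The MUC1 stretch held 36 units of 60 bases and made up 51.9% of its longest transcript. The MUC4 stretch held 18 units of 48 bases, 5.07% of its longest transcript. The MUC20 stretch held 12 units of 57 bases (25% of the transcript), of which 10 were identical to the unit shown. A stretch here is the longest unbroken run with adjacent units at least 80% identical, so it need not hold every repeat of a gene. In MUC1, 42.4% of all 50-base windows of the transcript occurred more than once within it. The same share was 29.2% for MUC5B, 28.3% for MUC4, 21.4% for MUC5AC, 19.7% for MUC20 and 1.07% for MUC16, and it was 0 for MUC13. MUC20 was the member with the most sequence found in other genes, at 69.1% of its windows, against at most 0.379% for any other member.

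Promoter sequence matched by symbol was available for MUC1, MUC2, MUC3A, MUC4, MUC13 and MUC16, and 2 windows are shown that belong to a member called lower (MUC13) and a member that was not called (MUC1). Each is the 250 bases before a RefSeq start on GRCh38.p14, at chr1:155192916-155193165 (minus strand) for MUC1 and chr3:124934752-124935001 (minus strand) for MUC13. Capitals mark matches, on either strand, to the letters searched, which were TGANTCA for AP-1, TGTTTAC for forkhead factors, TTCNNNGAA for STAT factors, GGGCGG for Sp and KLF factors, CCGGAA for ETS factors and TATAAA for the basal box of that name.
MUC1: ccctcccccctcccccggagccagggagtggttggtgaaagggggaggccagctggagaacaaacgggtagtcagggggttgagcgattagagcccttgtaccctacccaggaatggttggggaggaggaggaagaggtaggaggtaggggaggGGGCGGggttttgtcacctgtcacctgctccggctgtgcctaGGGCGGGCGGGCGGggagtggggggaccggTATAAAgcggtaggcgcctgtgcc
MUC13: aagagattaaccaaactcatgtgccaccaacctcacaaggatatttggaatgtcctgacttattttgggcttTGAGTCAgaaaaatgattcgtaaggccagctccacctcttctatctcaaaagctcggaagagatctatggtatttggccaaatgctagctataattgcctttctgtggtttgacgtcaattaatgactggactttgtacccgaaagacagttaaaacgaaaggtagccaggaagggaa

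The MUC1 window held 4 GGGCGG matches, 3 of them overlapping in 1 run, and 1 TATAAA match. The MUC13 window held 1 TGANTCA match and none of the other letters. Of 35116 RefSeq windows of the same length, 42.6% held GGGCGG, 10.7% held TATAAA and 6.57% held TGANTCA. The windows differed in base composition, with 66.0% G and C in MUC1 and 41.6% in MUC13.

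Libraries held 19785922 to 23191698 gene counts, of 79.1% to 85.2% of reads assigned to a gene. Levels are given as CPM, which are counts in parts per 1000000 of the library size after TMM scaling. SMARCA4 was at 220, 228, 198 and 235 CPM across parental replicates 1 to 4. It was at 29.5, 26.1, 22.3 and 31.0 CPM across knockout replicates 1 to 4, so the gene's own reads followed the labels in all 8 tumours. Epithelial marker genes summed to 6412 to 7449 CPM in parental and 5051 to 6614 CPM in knockout tumours. Of these 8 markers, the keratins KRT7 (log2 fold change -0.71) and KRT19 (-1.01) and the splicing regulator ESRP1 (-0.52) were called lower. None was called higher and 5 were not called, with 3 of the 8 above 0 and a median of -0.33. Over all genes tested, 13.0% were called higher and 14.1% lower, and nothing is inferred from so few markers. Of 8 lung adenocarcinoma markers, NKX2-1, SFTPA1, SFTPC and SFTA3 had no count in any tumour, and the others had few reads. The whole list summed to at most 3.22 CPM in these tumours labelled as lung cancer. Squamous markers summed to 413 to 642 CPM in parental and 352 to 691 CPM in knockout tumours. Of the 5 squamous markers tested, 2 were called higher and 2 lower. Fibroblast markers summed to 181 to 611 CPM in parental and 345 to 607 CPM in knockout tumours, with LUM called higher in the knockout (0.103 to 0.637 against 10.1 to 15.5 CPM), and endothelial markers summed to 7.91 to 20.02 and 9.56 to 16.1 CPM. Leukocyte markers summed to 71.1 and 60.7 CPM in parental replicates 2 and 3 and to 7.34 to 30.3 CPM elsewhere. Of these sums, LYZ alone gave 38.1 and 36.7 CPM in parental replicates 2 and 3, against 3.78 to 17.4 CPM elsewhere. LYZ is also in the list of goblet-cell products below, so the leukocyte sum is not particular to leukocytes. Skeletal muscle markers summed to 36.0 CPM in parental replicate 2 against 0.195 to 16.3 CPM in the other 7 tumours. Whether the fibroblast, endothelial, leukocyte and muscle marker counts are reads of host cells or of the H2122 cells was not tested. Any removal of mouse reads is not given in the sources used here. The part of any of these marker groups in the results below was not tested except where values without a tumour are given.

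Of the 10 mucin genes, 9 had enough counts to be tested, and 4 of them (MUC4, MUC5AC, MUC13 and MUC20) were lower in SMARCA4 knockout tumours at an edgeR Benjamini-Hochberg adjusted p under 0.05, which is what "called" means here. None was called higher. Over all genes tested, 27.0% were called, 13.0% higher and 14.1% lower. The 4 of 9 tested members called lower are above that share, though from few genes. The members were chosen with earlier results of these data known, so nothing is inferred from the excess. The median log2 fold change was -0.51 over the 9 tested mucins and 0.00 over all 16219 tested genes. One library weighed heavily on the set: parental replicate 2 was the highest of the 8 tumours for MUC4, MUC5AC, MUC5B and MUC16. Without it, MUC5B and MUC16 were called higher in the knockout and the same 4 genes were called lower, against 14.0% of genes called higher and 14.6% lower. In bulk tumours, fewer cells of a type and less RNA per cell cannot be told apart.

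**Figure D1:**
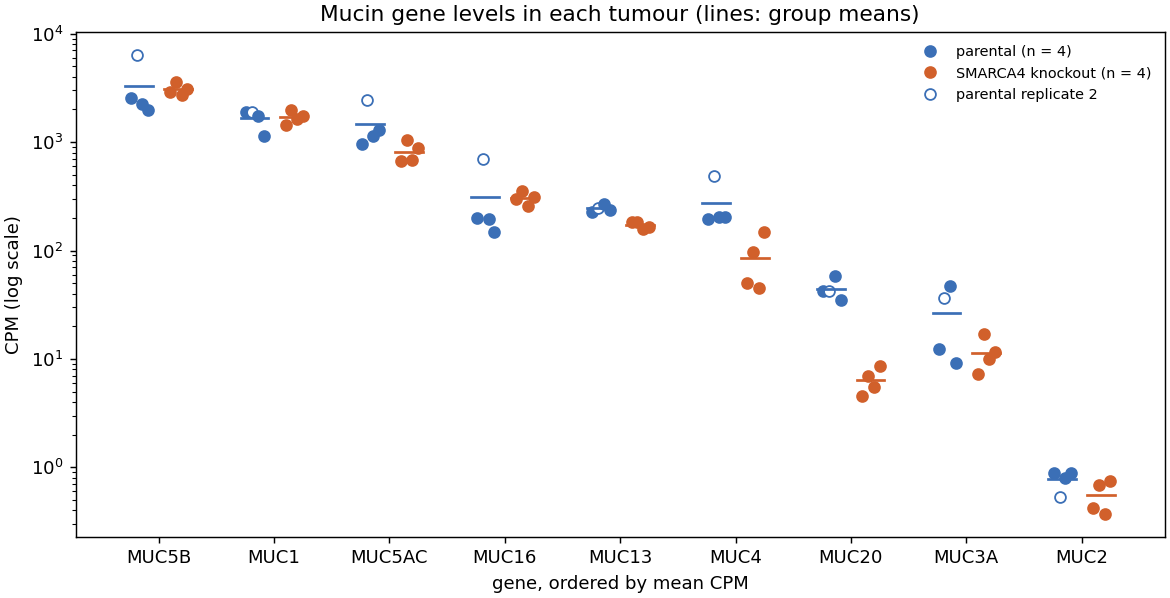
CPM of 9 mucin genes in each tumour on a log axis, with parental tumours in blue, SMARCA4 knockout tumours in orange, horizontal lines at group means and an open circle for parental replicate 2. MUC20, MUC13 and MUC4 separate the groups, and the open circle stands above the other parental tumours for MUC5B, MUC5AC, MUC16 and MUC4.

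MUC20, a transmembrane mucin known to bind the receptor MET, had the steepest fall. It was at 41.9, 42.8, 58.3 and 34.9 CPM across parental replicates 1 to 4 and at 4.53, 6.91, 5.55 and 8.67 CPM across knockout replicates 1 to 4. Every knockout tumour lay far below every parental tumour, and the lowest parental value was 34.9 CPM against a highest knockout value of 8.67 CPM. The log2 fold change was -2.79 with a standard error of 0.21 (edgeR adjusted p = 4.61e-06), a level 6.93-fold lower, and it stayed between -2.97 and -2.64 when each tumour was left out. MUC20 sequence is shared with other annotated genes: 42.8% of its exon bases also belong to the non-coding MUC20-OT1 on the same strand, and 46.6% of its transcript windows occur in the pseudogene MUC20P1. MUC20P1 was called lower by the same factor (log2 fold change -2.79, edgeR adjusted p = 5.41e-05), from 5.64 ± 1.16 to 0.814 ± 0.383 CPM (SD, n = 4 each). MUC20-OT1 stood at 19.7 ± 3.77 CPM (parental) and 25.9 ± 4.74 CPM (knockout; SD, n = 4 each), with a log2 fold change of 0.40 that was not called (edgeR adjusted p = 0.0970) except without parental replicate 2 (0.51, adjusted p = 0.0370) or knockout replicate 3 (0.51, adjusted p = 0.0354). How reads common to the 3 genes were assigned is not given in the sources used here, so the MUC20 and MUC20P1 falls are not separate measurements.

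MUC4, a transmembrane mucin that partners the receptor ERBB2, was at 195, 492, 203 and 202 CPM across parental replicates 1 to 4. The knockout tumours were at 50.2, 96.4, 45.3 and 149 CPM. The groups did not overlap, but they spread widely, since knockout tumours ranged over 3.29-fold and parental replicate 2 was 2.46 times the mean of the other parental tumours. MUC4 had a log2 fold change of -1.68 with a standard error of 0.41 (edgeR adjusted p = 0.0104), a level 3.20-fold lower. Without parental replicate 2 it was -1.23 (edgeR adjusted p = 0.0183), and without knockout replicate 4 it was -2.09 (adjusted p = 0.00409).

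MUC13, a small transmembrane mucin of gut-type epithelia, changed least among the called members and with the tightest groups. It was at 229, 246, 271 and 234 CPM across parental replicates 1 to 4 and at 183, 183, 157 and 166 CPM in the knockout. The parental tumours all lay above the knockout tumours, and within either group the highest tumour exceeded the lowest by less than 1.19-fold. MUC13 had a log2 fold change of -0.51 with a standard error of 0.09 (edgeR adjusted p = 0.00143), or 1.42-fold lower. MUC4, MUC13 and MUC20 were the members whose groups did not overlap. Over all tested genes, 15.3% had every knockout tumour below every parental tumour.

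MUC1, the cell-surface mucin carried by most glandular epithelia, was at 1882, 1895, 1746 and 1142 CPM across parental replicates 1 to 4. Knockout replicates 1 to 4 were at 1452, 1962, 1642 and 1732 CPM. All knockout tumours fell within the range of the parental tumours except replicate 2, which was slightly above it. Its log2 fold change was 0.03 with a standard error of 0.16 (edgeR adjusted p = 0.921).

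MUC16, the very long transmembrane mucin that carries a serum antigen followed in ovarian cancer, was at 200, 694, 193 and 149 CPM across parental replicates 1 to 4. The knockout tumours were at 301, 356, 259 and 315 CPM. The knockout tumours lay above parental replicates 1, 3 and 4 and below parental replicate 2, which was 3.84 times the mean of the other parental tumours. With all tumours the log2 fold change was -0.01 with a standard error of 0.40 (edgeR adjusted p = 0.993). Without parental replicate 2 it was 0.77 with a standard error of 0.13, a level 1.70-fold higher in the knockout (edgeR adjusted p = 0.00160).

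MUC3A, a transmembrane mucin known mainly from intestine, was at 12.3, 36.7, 47.5 and 9.21 CPM across parental replicates 1 to 4. The knockout tumours were at 7.32, 16.9, 9.93 and 11.6 CPM. Parental replicates 2 and 3 were above every knockout tumour, whereas parental replicates 1 and 4 lay inside the knockout range. The log2 fold change was -1.21 with a standard error of 0.47 and was not called (edgeR adjusted p = 0.0779). It was called without parental replicate 1 (-1.45, adjusted p = 0.0429) or parental replicate 4 (-1.50, adjusted p = 0.0177), and it was 0.08 (adjusted p = 0.849) without parental replicates 2 and 3 together. It was also called with no filter on low counts (-1.23, adjusted p = 0.00504), a fit in which 8.19% of genes were called lower and 6.37% higher. Parental replicates 2 and 3 were also the ones with the most leukocyte marker reads, a sum that includes LYZ, as given above. The part of the cells behind those reads in the MUC3A values was not tested beyond leaving both tumours out. An antisense gene, AC254629.1, overlaps 6.50% of the MUC3A exon bases and had at most 9 counts in any tumour.

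MUC21, a heavily repeated transmembrane mucin, was at the limit of detection. Parental replicates 1 to 4 had 0, 1, 10 and 5 counts, and knockout replicates 1 to 4 had 0, 0, 0 and 1 count. It was too low to be tested with the other genes at the usual filter on low counts. In the fit with no filter it was called lower (edgeR adjusted p = 0.0370). The pooled parental to knockout ratio was 15.8 (exact 95% interval 2.46 to 664, counting error only), and without parental replicate 3 it was 8.03 (0.975 to 369). An exact two-sided permutation test of its CPM over the 8 tumours gave p = 0.143, where the smallest possible p is 0.0286. A count of 0 allows up to 3 counts in that library.

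MUC5AC, the inducible gel-forming mucin of airway goblet cells, was at 955, 2429, 1150 and 1300 CPM across parental replicates 1 to 4. The knockout tumours were at 668, 1034, 688 and 883 CPM. The groups overlapped only through knockout replicate 2, which was above parental replicate 1. The log2 fold change was -0.83 with a standard error of 0.26 (edgeR adjusted p = 0.0347), or 1.78-fold lower. The call sat close to the threshold. Without parental replicate 2, which was 2.14 times the mean of the other parental tumours, the log2 fold change was -0.47 (edgeR adjusted p = 0.0483). The call was lost under DESeq2 (adjusted p = 0.0623), without knockout replicate 1 (edgeR adjusted p = 0.0965), knockout replicate 3 (0.0941) or knockout replicate 4 (0.0635), and without parental replicates 2 and 3 together (0.0785).

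MUC5B, the constitutive gel-forming mucin of airway glands, was the member with the most reads. It was at 2526, 6334, 2229 and 1980 CPM across parental replicates 1 to 4 and at 2886, 3561, 2701 and 3111 CPM across knockout replicates 1 to 4. As with MUC16, all knockout tumours were above parental replicates 1, 3 and 4 and below parental replicate 2, which was 2.82 times the mean of the other parental tumours. The log2 fold change was -0.09 with a standard error of 0.31 over all tumours (edgeR adjusted p = 0.862). Without parental replicate 2 it was 0.45 with a standard error of 0.12, or 1.36-fold higher (edgeR adjusted p = 0.0183). Without that tumour, MUC5B and MUC16 had every knockout tumour above every parental tumour, as did 18.1% of tested genes, whereas MUC2, MUC4, MUC13 and MUC20 had every knockout tumour below, as did 18.6%.

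MUC2, the gel-forming mucin of the intestine, was nearly silent, at 0.536 to 0.891 CPM in parental and 0.373 to 0.746 CPM in knockout tumours. These values rest on 8 to 21 counts a tumour, and the groups overlapped. Its log2 fold change was -0.49 with a standard error of 0.31 and was not called (edgeR adjusted p = 0.287).

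**Figure D2:**
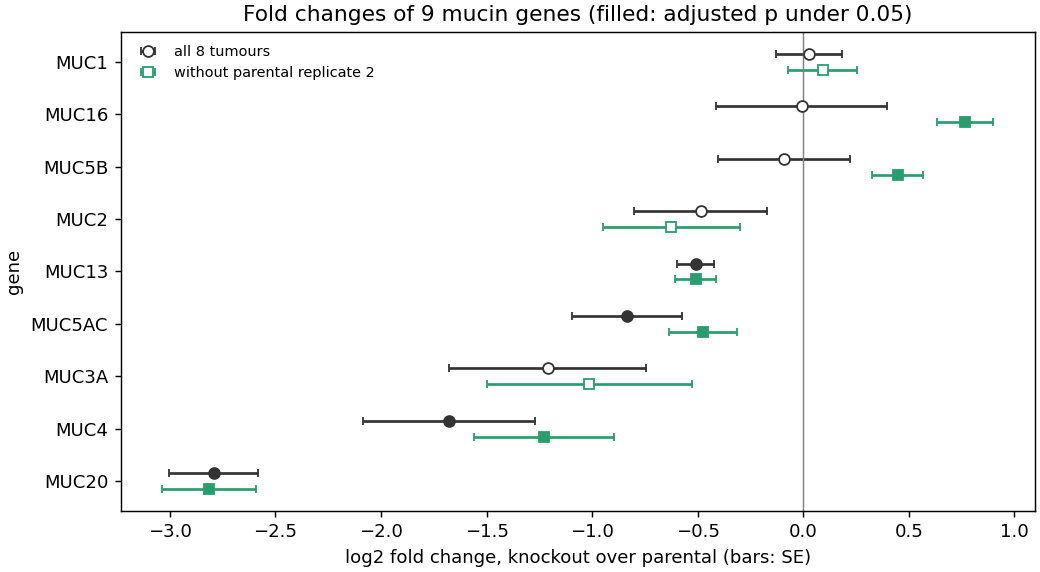
Log2 fold change of knockout over parental for 9 mucin genes with standard error bars, from edgeR with all 8 tumours (black circles) and without parental replicate 2 (green squares), filled where the adjusted p was under 0.05. MUC20, MUC4, MUC5AC and MUC13 are filled on the lower side in both, and MUC16 and MUC5B move from near 0 to 0.77 and 0.45 without parental replicate 2.

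In parental replicate 2, reads without a unique alignment made up 8.11% of all reads, against 4.52% to 6.10% in the other 7 libraries, and its skeletal muscle and leukocyte marker sums were the highest of the 8, as given above. Not every mucin was high in it: MUC13 stood at 1.01 times, MUC20 at 0.949 times and MUC1 at 1.19 times the mean of the other parental tumours. The part of non-unique reads, and of the cells behind the muscle and leukocyte marker reads, in its mucin values was not tested.

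The mix of the airway mucins is given without a test, as it was chosen after its values were seen. MUC5AC reads per MUC5B read were 0.378, 0.383, 0.516 and 0.657 across parental replicates 1 to 4. Across knockout replicates 1 to 4 they were 0.231, 0.291, 0.255 and 0.284. All parental tumours were above all knockout tumours, parental replicate 2 included. Group means were 0.484 ± 0.132 (parental) and 0.265 ± 0.0273 (knockout; SD, n = 4 each). MUC5AC and MUC5B share 66 transcript windows of 50 bases, 0.379% of those of MUC5AC.

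Together the 10 genes took 0.591%, 1.23%, 0.605% and 0.513% of gene counts across parental replicates 1 to 4 and 0.542%, 0.717%, 0.548% and 0.644% across knockout replicates 1 to 4. MUC5B, MUC1 and MUC5AC supplied 86.9% to 91.3% of these counts. MUC5B ranked between 6 and 26 among all genes by count, and the rank of 6 was in parental replicate 2.

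Levels were compared between mucins per length, as CPM per kb of annotated exon sequence. In parental tumours the order was MUC1 at 353 ± 75.5, MUC5B at 176 ± 111, MUC5AC at 83.6 ± 37.9 and MUC13 at 70.02 ± 5.42 CPM per kb (SD, n = 4 each). Below them came MUC4 at 12.8 ± 6.85, MUC20 at 10.5 ± 2.32, MUC16 at 7.05 ± 5.88 and MUC3A at 2.32 ± 1.64 CPM per kb. MUC2 (0.0614 ± 0.0131) and MUC21 (0.0466 ± 0.0530) were last. Neighbours in this order differed by more than the larger of their SDs for MUC1 and MUC5B, for MUC13 and MUC4, and for MUC3A and MUC2, and by less for the other pairs. MUC5AC and MUC13 changed places when the longest transcript gave the length. In knockout tumours MUC1 (360 ± 44.9) and MUC5B (165 ± 19.9) still led. MUC13 (49.2 ± 3.68) and MUC5AC (46.9 ± 9.95) again differed by less than their spread. MUC16 (7.02 ± 0.910) stood above MUC4 (3.999 ± 2.27) and MUC20 (1.51 ± 0.422), followed by MUC3A (1.01 ± 0.355). In parental tumours MUC4 and MUC20 had stood above MUC16. The ratio of MUC1 to MUC5B per kb within a parental tumour was 2.37 ± 0.869 (SD, n = 4), from 1.18 in parental replicate 2 up to 3.09.

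Within groups, MUC5B and MUC16 varied together. Measured as log2 CPM minus the group mean, parental replicates 1 to 4 were at -0.20, 1.13, -0.38 and -0.55 for MUC5B and at -0.33, 1.46, -0.38 and -0.76 for MUC16. The knockout tumours were at -0.08, 0.22, -0.17 and 0.03 for MUC5B and at -0.02, 0.22, -0.24 and 0.04 for MUC16. The order of the 8 tumours was the same for both genes. Pearson's r was 0.995 and Spearman's rho 1 over 8 tumours, and r was 0.935 without parental replicate 2. These are descriptions of 8 libraries whose values share a depth and composition, and no p is given. Over all 8 tumours the other pairs were looser: MUC5AC and MUC5B, which lie 21.9 kb apart, had r of 0.853, or 0.285 without parental replicate 2. MUC4 and MUC5AC had r of 0.818 (0.694 without it). MUC2 and MUC4 had r of 0.261, but 0.964 without that tumour, which was then higher than the 0.935 of MUC5B and MUC16, with MUC2 resting on 8 to 21 counts a tumour.

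**Figure D3:**
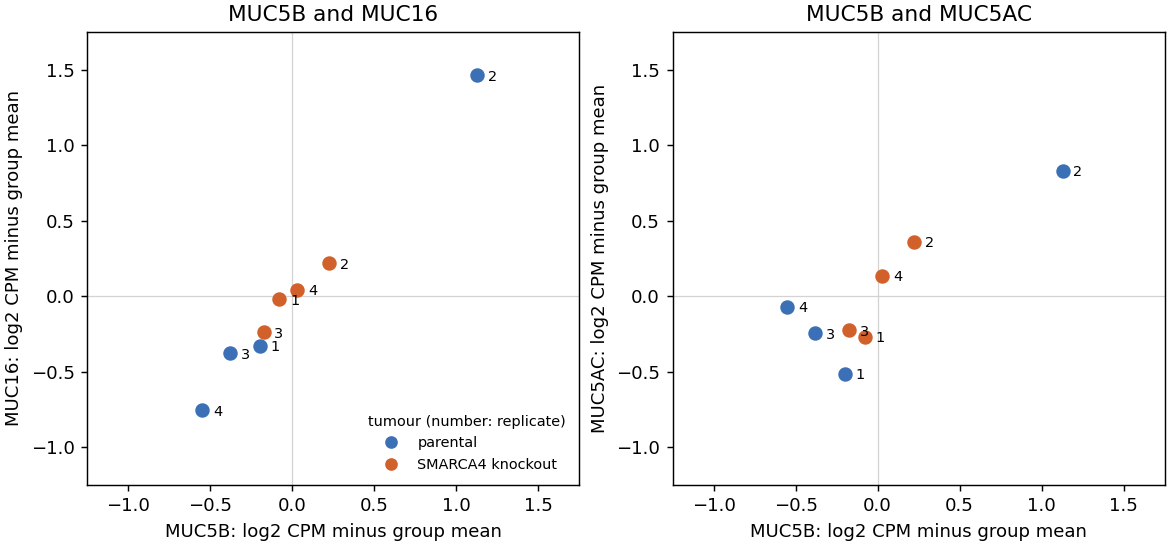
Deviation of log2 CPM from the group mean in each of 8 tumours, for MUC16 (left) and MUC5AC (right) against MUC5B, with replicate numbers beside the points. The MUC5B and MUC16 points lie close to 1 line, with parental replicate 2 at 1.13 and 1.46, whereas MUC5AC follows MUC5B mainly through that tumour.

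Of 13049 genes that averaged 1 or more on the log2 CPM scale, those whose deviations were most like those of MUC5B were MUC16 (r = 0.995), CCDC144B (0.991) and MUC5B-AS1 (0.988). MUC5B-AS1 is the antisense transcript within MUC5B. It was at 12.2 CPM in parental replicate 2 and at 3.57 to 6.33 CPM in the other tumours, its exons cover 2.33% of the MUC5B exon bases on the opposite strand, and without knowledge of strand the reads of both genes cannot be told apart. For MUC1 the most alike were DYRK1B (0.964), VPS26B (0.963) and SLC25A45 (0.962). For MUC5AC they were ATP9B (0.985), PRPSAP2 (0.969) and ZNF575 (0.960). Over all 8 tumours MUC16 was thus the gene closest to MUC5B, while MUC1 and MUC5AC had no other member among their 3. Without parental replicate 2, r with MUC5B was 0.935 for MUC16, 0.878 for CCDC144B and 0.910 for MUC5B-AS1. For the genes named with MUC1 and MUC5AC it was then 0.920 to 0.982. Each gene was picked as the most alike of 13049 over 8 libraries, so high r values come partly from the choice.

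Positions are from GENCODE 29 (GRCh38). MUC1 (chr1:155185824-155192916, minus strand), MUC3A (chr7:100949555-100968346, plus), MUC13 (chr3:124905442-124953819, minus), MUC16 (chr19:8848844-8981342, minus) and MUC21 (chr6:30983718-30989903, plus) each lie apart from the other members, whereas 5 members have another as a neighbour. On chromosome 11, MUC2 (chr11:1074875-1110511), MUC5AC (chr11:1157953-1201138) and MUC5B (chr11:1223066-1262172) lie in a row on the plus strand between MUC6 and TOLLIP. Along this row the log2 fold changes were -0.28 for CHID1 (edgeR adjusted p = 0.0216), -0.10 for AP2A2 (0.389), -0.26 for MUC6 (0.734), -0.49 for MUC2, -0.83 for MUC5AC, -0.09 for MUC5B -0.39 for TOLLIP, an adaptor of innate immune signalling (0.00493), and -0.06 for TOLLIP-AS1 (0.882). MUC5AC therefore had the largest change in the row, and MUC5B beside it was not called. The CHID1 call was lost without a filter (edgeR adjusted p = 0.0566), with a replicate block (0.0577) and when any 1 of parental replicate 1 or knockout replicates 1, 2 and 3 was left out.

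On chromosome 3, MUC20 (chr3:195720882-195741123, plus strand) and MUC4 (chr3:195746765-195812277, minus strand) lie 5.64 kb apart, and both fell. On the lower side, APOD, which encodes a lipid-binding apolipoprotein, fell from 4.51 ± 2.07 to 0.129 ± 0.0436 CPM (SD, n = 4 each; log2 fold change -5.06, edgeR adjusted p = 1.07e-05). On the upper side, TNK2, which encodes a kinase, rose from 23.9 ± 1.52 to 37.1 ± 3.70 CPM (log2 fold change 0.63, edgeR adjusted p = 0.000610), and the pseudogenes AC124944.2 (0.49) and SDHAP1 (0.26) beyond it were not called. MUC20 and MUC4 thus lie between genes called in opposite directions. Around MUC13, elsewhere on the chromosome, KALRN (-0.58, edgeR adjusted p = 0.0320) and SLC12A8 (-0.42, edgeR adjusted p = 0.0390) were called lower, calls that were lost in 5 of 8 and 7 of 8 fits with 1 tumour left out and with a replicate block (adjusted p = 0.0732 and 0.0507). The SLC12A8 call was also lost with upper-quartile scaling (edgeR adjusted p = 0.0599). The nearer ITGB5 (0.13) and HEG1 (-0.50), and UMPS (-0.24) and ZNF148 (-0.35), were not called. Over the 42 genes that are the 3 nearest tested genes on each side of a member and are not members, 5 were called higher, 8 lower and 29 were not called, a share close to the background of 27.0%, with a median log2 fold change of -0.11.

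The remaining genes of mucin biology were grouped into lists, and the next paragraphs give their counts beside the background of 13.0% called higher and 14.1% called lower. Of 18 other mucin genes, 8 were tested. MUCL1, a small mucin-like secreted protein, fell from 6.46, 1.80, 20.4 and 26.5 CPM across parental replicates 1 to 4 to between 0.327 and 1.31 CPM (log2 fold change -3.81, edgeR adjusted p = 0.00268). HAVCR1, which has a mucin-type domain, rose (1.26, edgeR adjusted p = 0.0310), and that call was lost when any 1 of parental replicates 1 and 4 or knockout replicates 1, 2 and 3 was left out. The other 6 were not called.

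Of 23 tested regulators of mucin transcription, 11 were called lower and 2 higher, with a median log2 fold change of -0.44. CREB3L1, a membrane-bound factor of secretory cells, fell from 92.3, 89.6, 138 and 97.4 CPM across parental replicates 1 to 4 to 6.16, 14.6, 8.34 and 10.4 CPM across knockout replicates 1 to 4 (log2 fold change -3.40, edgeR adjusted p = 3.32e-06). SPDEF, a driver of goblet-cell differentiation, was at 70.3 to 99.98 CPM in the parental tumours. In the knockout it was at 41.7 to 45.4 CPM in replicates 1, 3 and 4 and at 71.4 CPM in replicate 2, so the groups just overlapped (log2 fold change -0.70, edgeR adjusted p = 0.0130). FOXA1 (-0.81), SOX2 (-1.45) and HES1 (-0.96), factors of epithelial and progenitor identity, fell, with no overlap between groups. HNF4A, a factor of gut and liver epithelium, rose from 1.11 ± 0.206 to 3.15 ± 1.18 CPM (SD, n = 4 each; log2 fold change 1.49, edgeR adjusted p = 0.00234). FOXA3 was low, at 3.06 to 5.02 CPM, and not called (-0.05, edgeR adjusted p = 0.874), and NKX2-1 had no counts. Named after their values were seen, FOXA2 (-1.88) and XBP1 (-0.95), the latter a regulator of secretory capacity, also fell.

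Of the 9 lists, goblet-cell products and mucin-folding genes had the largest share called lower, 13 of 17 tested against 1 called higher, with a median log2 fold change of -1.34. Named after their values were seen, SCGB3A2 was the 1 called higher (1.23, edgeR adjusted p = 0.0355), a call lost without knockout replicate 1. TFF1, at 276 ± 38.3 CPM in parental tumours (SD, n = 4), was not called (-0.17), nor was PDIA3 (-0.14). TFF3, the trefoil peptide secreted with mucus, fell from 199, 240, 360 and 314 CPM across parental replicates 1 to 4 to 9.61, 23.1, 10.8 and 15.8 CPM across knockout replicates 1 to 4 (log2 fold change -4.23, edgeR adjusted p = 2.67e-06). AGR2, the disulphide isomerase needed to assemble gel-forming mucins, fell from 881 ± 92.9 to 424 ± 78.2 CPM (SD, n = 4 each; -1.06, edgeR adjusted p = 0.000158). SLC12A2, a chloride cotransporter of secretory epithelia, fell by 2.06 on the log2 scale, and BPIFA1, an airway surface protein, fell by 4.29. When each tumour was left out, the BPIFA1 log2 fold change ranged from -4.89 (without knockout replicate 2) to -3.78. A further pair, named after their values were seen, rested on an uneven parental group: FCGBP, a mucus-binding protein (-3.57), and PIGR, the immunoglobulin transporter (-2.84), were at 94.0 and 27.9 CPM in parental replicate 3 and at most 16.2 and 4.48 CPM in the other parental tumours. Without parental replicate 3 the log2 fold changes were -2.27 for FCGBP (edgeR adjusted p = 0.000193) and -1.35 for PIGR (edgeR adjusted p = 0.0438). The PIGR call was lost with limma-voom (adjusted p = 0.0737) and without knockout replicate 1 (edgeR adjusted p = 0.0596) or 4 (0.0603).

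O-glycan synthesis changed in both directions. Of 13 tested GALNT genes, which start O-glycans, 2 were called higher and 4 lower (median log2 fold change -0.03). GALNT2 rose from 210.2 ± 4.13 to 341 ± 31.8 CPM (log2 fold change 0.70, edgeR adjusted p = 0.000132), whereas GALNT7 fell from 145 ± 11.2 to 76.8 ± 2.86 CPM (SD, n = 4 each; -0.92, edgeR adjusted p = 1.46e-05). GALNT5 (-1.61) and GALNT18 (-0.55) also fell. Of 16 genes of core formation and extension, 4 were called higher and 4 lower (median 0.02). C1GALT1, which makes the common galactose-containing core, was not called (0.02, edgeR adjusted p = 0.937). GCNT3, a mucin-type branching enzyme, rose from 15.5 to 38.6 CPM in parental to 51.9 to 63.8 CPM in knockout tumours (1.19, edgeR adjusted p = 0.00285). Named after their values were seen, GCNT1 of the same family fell (-1.86, edgeR adjusted p = 0.00161) and GCNT4 was not called (0.70). B3GNT6, which makes the alternative core typical of gut mucins, fell from 5.77 to 11.7 CPM to 0.979 to 2.43 CPM (-2.57, edgeR adjusted p = 0.000160). B4GALT4 (0.96) and B4GALNT3 (1.31) rose, and B4GALT5 (-0.55) fell.

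Of 17 tested sialyl- and fucosyltransferases that cap glycans, 8 were called lower and 3 higher (median -0.51, and -0.23 without parental replicate 2, with the same counts). ST6GALNAC1, which makes the sialyl-Tn antigen on mucins, fell from 142, 117, 157 and 119 CPM across parental replicates 1 to 4 to 47.0, 55.9, 56.0 and 57.0 CPM across knockout replicates 1 to 4 (log2 fold change -1.31, edgeR adjusted p = 1.16e-05). ST6GAL1 (-1.47) and FUT1 (-2.71) fell, and ST3GAL4 rose (0.54). Named after their values were seen, FUT2 (-1.20), FUT3 (-1.20) and FUT6 (-3.28), enzymes of blood-group and Lewis antigens, fell. Against these, the blood-group gene ABO (0.86) and ST6GALNAC2 (1.84) were called higher, and FUT4 was not called (0.03), so blood-group genes changed in both directions.

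Among 17 tested partners of mucins, 3 were called higher and 5 lower (median -0.02). ERBB2, the receptor partner of MUC4, fell from 286 ± 43.4 to 195 ± 12.9 CPM (SD, n = 4 each; log2 fold change -0.55, edgeR adjusted p = 0.00409), and the mucin-binding galectin gene LGALS9 fell (-1.36). CD44 (0.63) and MSN (0.55), which encode a hyaluronan receptor and a membrane-cytoskeleton linker, rose. Of 7 tested sheddases, MMP14 was called higher (0.47) and ADAM9 lower (-0.38). Either call was lost in some fits with 1 tumour left out, ADAM9 in 5 of 8 and MMP14 in 4 of 8. Of 17 tested genes of granule exocytosis, 3 were called higher and 6 lower (median -0.18). SYT7, a calcium sensor of granule release, fell from 32.9 ± 8.38 to 5.29 ± 0.779 CPM (SD, n = 4 each; -2.64, edgeR adjusted p = 3.71e-06), and RAB3D of secretory granules (-0.80) and MARCKSL1 (-0.80) fell.

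**Figure D4:**
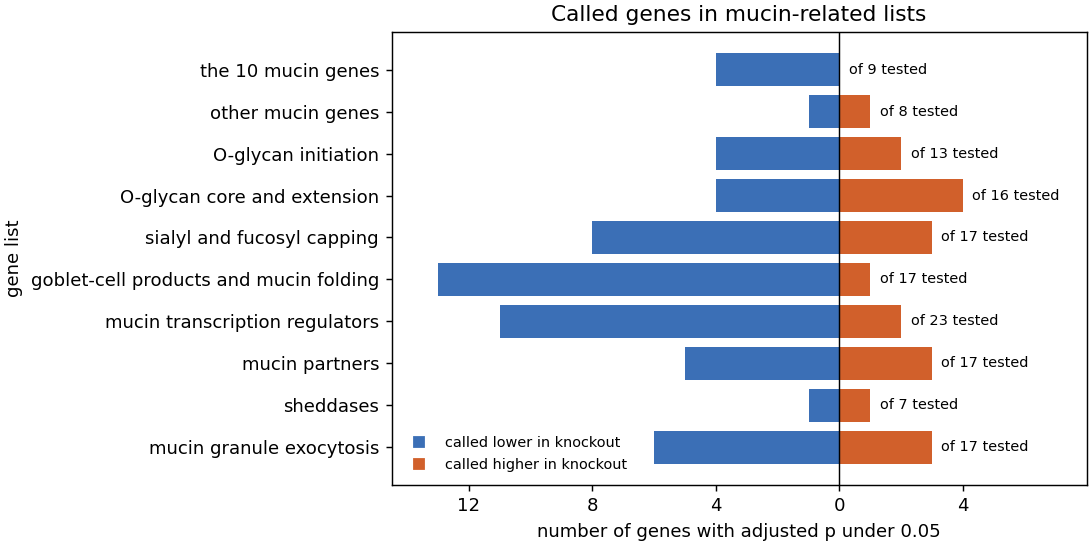
Number of genes called lower (blue, left) and higher (orange, right) in SMARCA4 knockout tumours for the 10 mucin genes and 9 lists of mucin-related genes, with the number tested beside each bar. Goblet-cell products (13 lower, 1 higher) and regulators (11 lower, 2 higher) lean to the lower side, whereas core and extension enzymes have 4 on each side.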

How the data were processed

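RNA was sequenced from 8 xenograft tumours, 4 parental and 4 SMARCA4 knockout, with groups and replicate numbers taken from the labels. The authors deposited raw read counts per gene symbol for each tumour, and the submitters' processing notes name TopHat2 2.1.1, HTSeq 0.11.0 and the build hg38. The annotation, counting mode, strandedness and any removal of mouse reads are not given in the sources used here. The 5 summary lines of each file, with 14.8% to 20.9% of reads, stayed out of library sizes and tests.

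Genes were kept by filterByExpr (minimum count 10, minimum total 15), scaled by TMM and tested with the quasi-likelihood F-test of edgeR 4.0.16 in R 4.3.3, knockout against parental without covariates. Benjamini-Hochberg adjustment ran over all 16219 genes tested, with a threshold of 0.05. The code was tested on simulated data. The reads hold no molecular identifiers, so intervals cover counting error only. All pairs of libraries differed by more than sampling noise (chi-square per degree of freedom at least 9.13).

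The members and gene lists were chosen with earlier results of these data known. Named by rule were the members, SMARCA4, up to 4 called genes with the smallest p in each list, 8 further genes (SPDEF, FOXA3, AGR2, TFF3, NKX2-1, HNF4A, C1GALT1 and GCNT3), the 3 nearest tested genes on each side of a member, of which those on chromosomes 3 and 11 are described, and the 3 genes most alike in deviation to MUC5B, MUC1 and MUC5AC. One gene that this rule names is not reported here. Alternatives were DESeq2 1.42.0, limma-voom (limma 3.58.1), 4 other scalings, 2 other filters, leaving the 10 most abundant genes out, a replicate block and leaving out each tumour. Added after the data were seen were fits without parental replicate 2 under both other tools and without parental replicates 2 and 3.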

Additional observations from a re-analysis of the deposited data

Results flagged for a closer look

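In 14 of 148 sets of 4 tumours of 1 group (9.46%), the highest or lowest tumour stood apart from the other 3 by Dixon's criterion. Chance meets this criterion in about 1 in 20 independent sets. The sets here are not independent, since they share the same tumours. CCDC144B, DYRK1B and VPS26B were also picked for deviations like those of MUC5B or MUC1. The 9.46% therefore cannot be compared with that rate, and no excess is inferred. Parental replicate 2 was the tumour in 4 of the 14 sets. These were MUC4 at 492 CPM against 195 to 203 CPM in the other parental tumours, and MUC5B at 6334 against 1980 to 2526. The others were MUC16 at 694 against 149 to 200, and CCDC144B at 3.90 against 1.995 to 2.28. Parental replicate 3 was the tumour in 3: CREB3L1 at 138 CPM against 89.6 to 97.4, FCGBP at 94.0 against 11.7 to 16.2, and PIGR at 27.9 against 2.67 to 4.48. Parental replicate 4 was high for GALNT7 (162 CPM against 138 to 141) and low for DYRK1B (29.1 against 39.1 to 40.2) and VPS26B (74.7 against 87.5 to 87.9). Knockout replicate 2 was high for SPDEF (71.4 CPM against 41.7 to 45.4) and FUT3 (46.7 against 31.1 to 32.6), and knockout replicate 1 was low for ST6GALNAC1 (47.0 against 55.9 to 57.0). MUC21 in knockout replicate 4 (0.0466 CPM against 0) is a single read.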

How the results depend on the processing

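Every setting tried kept MUC4, MUC13 and MUC20 lower and called, and no setting that kept all 8 tumours called a mucin higher. The number of mucins called higher was 0 to 2 when 1 tumour was left out, and the 2, MUC5B and MUC16, came without parental replicate 2. It was also 2 without that tumour under limma-voom (0.45 and 0.77 on the log2 scale) and DESeq2 (0.44 and 0.76), and 2 without parental replicates 2 and 3 (0.44 and 0.81). With all tumours, MUC5B was 0.072 and MUC16 0.28 under limma-voom, and MUC16 was 0.028 with upper-quartile and 0.0058 with TMMwsp scaling, none of them called. The number called lower was 3 to 6 over all settings, and the 6, with no filter, added MUC3A and MUC21. MUC5AC was -0.84 and not called under DESeq2 and -0.47 and not called without parental replicates 2 and 3. MUC3A was -1.23 and called without a filter and 0.083 without parental replicates 2 and 3.

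Leaving out 1 tumour gave ranges of -0.12 to 0.10 for MUC1, -1.50 to -0.76 for MUC3A, -0.996 to -0.47 for MUC5AC, -0.27 to 0.45 for MUC5B and -0.24 to 0.77 for MUC16. Values near 0 that changed sign were C1GALT1 (-0.054 to 0.12, -0.0015 with no scaling and -0.0036 with no filter), FOXA3 (-0.16 to 0.088), MUC6 (-0.98 to 0.050) and MUC5B-AS1 (-0.35 to 0.42, and 0.050 under limma-voom). The cause was not tested.

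No pairing of tumours across groups by replicate number was seen: correlations of same-numbered deviations were -0.19 to 0.09, and 1 of 8 tumours correlated best with its own number. These few values cannot exclude a pairing. With the replicate number as a block, 3871 genes were called against 4385, MUC5B was 0.078, MUC16 0.29 and MUC5B-AS1 0.012, and the mucin calls did not change. Depth limits MUC2 and MUC21, with at most 21 and 10 counts a tumour.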
